A study of Mus musculus with 2 samples.

Results

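The chymotrypsinogen and elastase genes encode the serine protease zymogens of the pancreatic acinar cell other than the trypsinogens. The rule for the members uses gene symbols and no measured values, though they were chosen with earlier results of these data known. They are 3 chymotrypsinogen genes (Ctrb1, Ctrc and Ctrl) and 4 elastase genes (Cela1, Cela2a, Cela3a and Cela3b), 7 of the 43346 gene identifiers in each deposited table. The RNA came from the pancreas of 1 adult female mouse of strain C57BL/6J, aged 10 weeks, with no treatment or transgene named in the labels. Polyadenylated RNA of this 1 biological sample was sequenced as 2 technical replicate libraries, of which replicate 2 was made later, per the labels. With 1 group and no second condition, every SD here is technical (n = 2).

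Acinar cells make these enzymes as inactive precursors, pack them into zymogen granules and release them into the duct. In the intestine, enteropeptidase activates trypsinogen, and trypsin then cuts the other precursors. Chymotrypsins cut proteins after large hydrophobic and aromatic residues, while elastases prefer small or uncharged residues and were named for cutting elastin. Chymotrypsin C, the product of Ctrc where the gene is functional, also cuts trypsinogen and trypsin at regulatory sites. Whether Ctrc yields a working enzyme in this strain was not tested. Transcription of such genes in acinar cells depends on the PTF1 complex, in which Ptf1a and a partner bind an E-box while Rbpjl binds a TGGGAA motif beside it.

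The Cela3a and Cela3b promoters are shown first because these neighbouring paralogs were the most alike in sequence and yet far apart in level. They are from RefSeq on GRCm38.p6, run 5′ to 3′ on the minus strand, and end before both the RefSeq and the GENCODE start. Capitals mark, on either strand, the E-box form CACCTG, the Rbpjl motif TGGGAA and the GATA factor motif GATAAG. The promoter of Ctrb1, the chymotrypsinogen gene with the highest level, is given beside them.
Cela3a, chr4:137409792-137410041: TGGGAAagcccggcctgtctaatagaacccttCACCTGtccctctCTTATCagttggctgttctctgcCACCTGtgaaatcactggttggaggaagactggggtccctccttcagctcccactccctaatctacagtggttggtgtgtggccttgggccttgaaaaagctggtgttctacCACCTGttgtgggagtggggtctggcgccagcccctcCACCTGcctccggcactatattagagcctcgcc
Cela3b, chr4:137430541-137430770: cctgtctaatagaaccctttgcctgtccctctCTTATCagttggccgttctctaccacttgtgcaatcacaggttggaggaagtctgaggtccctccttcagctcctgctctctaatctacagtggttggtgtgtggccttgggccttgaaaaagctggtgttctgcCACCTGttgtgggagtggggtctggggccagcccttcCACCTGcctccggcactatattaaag
Ctrb1, chr8:111691011-111691260: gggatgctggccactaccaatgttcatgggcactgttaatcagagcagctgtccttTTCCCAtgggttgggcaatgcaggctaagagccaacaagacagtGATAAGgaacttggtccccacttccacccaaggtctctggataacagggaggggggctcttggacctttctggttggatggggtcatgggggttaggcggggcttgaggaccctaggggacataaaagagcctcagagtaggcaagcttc

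Promoter windows of 300 bases were matched for 6 of the 7 genes, and Ctrc was not matched. The windows of Cela3a and Cela3b aligned over 289 columns, of which 266 (92.0%) were identical, with 21 substitutions and 2 gap columns. The Cela3a window held 4 CACCTG matches and that of Cela3b 2. Positions are counted from 1 at the 5′ end of the Cela3a window, with the base of Cela3a first. C33T and A34G fall in the first match of Cela3a and C72T in the second, while the other two carry no substitution in Cela3b. Of the 6 windows, 5 held CACCTG on either strand (all but Ctrb1), against 20.2% of the 32851 windows in the table. GATAAG was found in 5 (all but Ctrl), against 7.44%, TGGGAA in 4 (Ctrb1, Ctrl, Cela2a and Cela3a), against 25.6%, and TATAAA in that of Cela1 alone, against 13.6%. The TGGGAA match of Cela3a begins at the first base of its window, and the aligned stretch of Cela3b lies outside the Cela3b window. The TGGGAA and GATAAG matches of Cela2a lie within the first exon of Cela2a-201, because the RefSeq start of this gene is 155 bases downstream of the GENCODE start. Other E-box forms were not searched, among them the CAGCTG that lies shortly before the TTCCCA of Ctrb1. Another such form is the CACTTG that C72T leaves in Cela3b at the second match of Cela3a. A match describes letters in the window and is not a measured binding site.

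All 7 genes were detected in both libraries, from Cela3a near 10 TPM to Ctrb1 and Cela2a among the most abundant transcripts of the tissue. Levels are deposited TPM, a unit corrected for transcript length, so genes can be compared with each other. Together the members took 7.34% of all TPM in replicate 1 and 13.3% in replicate 2 (10.3% ± 4.19, SD, n = 2). Expected counts, the deposited estimates of reads per gene, summed to 9441559 and 9797569 per library, and the members held 5.29% and 7.60% of them. The mitochondrial genes went from 26.7% of TPM in replicate 1 to 5.05% in replicate 2, while the lincRNA Gm42418 went from 11.0% to 33.2%. Their part in the member values was not tested. Both libraries came from 1 biological sample. For the level of the share, as opposed to its difference between libraries, the number of acinar cells and the RNA per cell cannot be told apart in bulk tissue. With these transcripts and their nuclear copies, Gm26917 and Lars2 left out of the total, the share of the members was 13.7% and 23.7%.

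Among the chymotrypsinogen genes, Ctrb1 (ENSMUSG00000031957, chromosome 8, 111686519 to 111691010), which encodes the main chymotrypsinogen B, had 27460 TPM in replicate 1 and 38071 in replicate 2. It was number 8 and number 3 of all genes by TPM in the respective libraries and had the highest mean of the family, 32765 ± 7503 TPM. Ctrl (ENSMUSG00000031896, chromosome 8, 105932003 to 105933862), chymotrypsin-like protease, had 11256 and 12133 TPM (11695 ± 620), the narrowest relative spread of the 7. Ctrc (ENSMUSG00000062478, chromosome 4, 141814962 to 141846359) stood far below both, at 349 and 455 TPM (402 ± 75.0). Ctrb1 exceeded Ctrc 78.8-fold in replicate 1 and 83.8-fold in replicate 2 when whole genes were counted. Without the transcript Ctrc-205, which runs into Cela2a, the ratio was 179-fold and 84.1-fold, and over coding transcripts 492-fold and 173-fold. The coding value leaves out Ctrc-204, which shares 949 of its 956 bases with the coding transcript Ctrc-201, itself listed at 0. The split of reads between them was not tested.

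Among the elastase genes, Cela2a (ENSMUSG00000058579, chromosome 4, 141814962 to 141826160) had 16702 TPM in replicate 1 and 46734 in replicate 2 (31718 ± 21235). In replicate 2 it was first among the protein coding genes, and in replicate 1 it was number 18. The first place rests on a retained intron transcript, since the coding transcript Cela2a-201 alone had 25942 TPM in replicate 2, less than Ctrb1. Cela1 (ENSMUSG00000023031, chromosome 15, 100674421 to 100687921) had 12187 and 22625 TPM (17406 ± 7381), and Cela3b (ENSMUSG00000023433, chromosome 4, 137420999 to 137430540) 5463 and 12649 (9056 ± 5081). These 3 genes were all higher in replicate 2. Cela3a (ENSMUSG00000078520, chromosome 4, 137401554 to 137409791) was lower than its neighbour by orders of magnitude, at 7.67 and 11.6 TPM (9.66 ± 2.81). Its rank among all genes was 3490 and 1942.

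**Figure D1:**
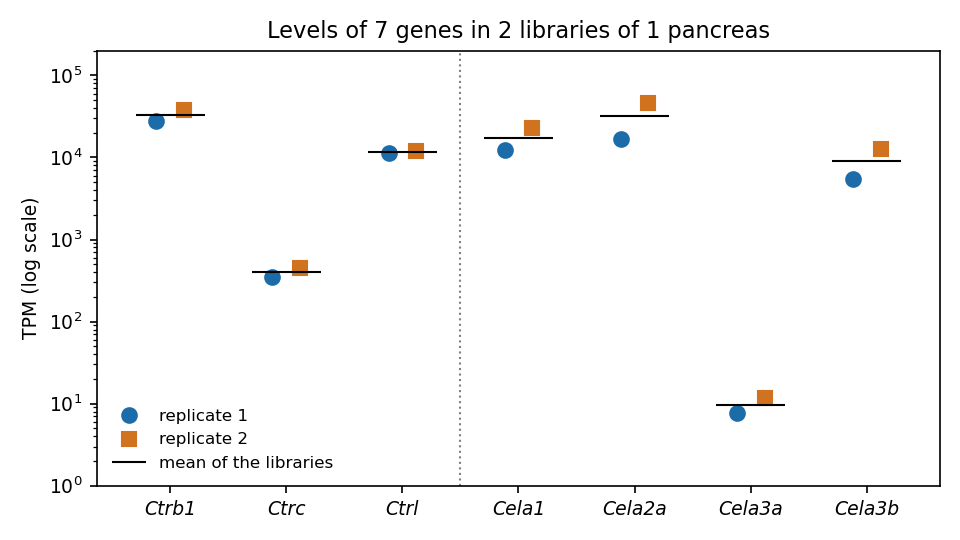
TPM (log scale) of each of the 7 genes in replicate 1 (circles) and replicate 2 (squares), with a line at the mean of the 2 libraries and chymotrypsinogens left of the dotted line. Ctrb1, Ctrl, Cela1, Cela2a and Cela3b lie at or above 5463 TPM in both libraries, Ctrc at 349 and 455 and Cela3a at 7.67 and 11.6.

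By mean TPM the order was Ctrb1, Cela2a, Cela1, Ctrl, Cela3b, Ctrc and Cela3a, but not all neighbours in this order were apart. Ctrb1 led Cela2a in replicate 1 and trailed it in replicate 2 when all transcripts were counted, while over coding transcripts it led in both, by 2.04- and 1.47-fold. Ctrl led Cela3b in replicate 1, at 11256 against 5463 TPM, and lay just below it in replicate 2. The ranges of Cela2a and Cela1 over the libraries overlapped, though Cela2a was higher in each library, by 1.37- and 2.07-fold, or 1.11- and 1.15-fold over coding transcripts. Cela1 was above Ctrl in both libraries without overlap, but by a narrow margin, since its lower value of 12187 TPM was close to the higher one of Ctrl, 12133. Ctrc and Cela3a were apart from the other members and from each other in both libraries.

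Cela3a and Cela3b lie 11207 bases apart on chromosome 4, on the same strand, with no protein coding gene annotated between them. Both have 8 coding exons, and their coding sequences were 89.3% identical, against 51.8% to 62.5% in the 20 other pairs of members. The level of Cela3b was 712-fold that of Cela3a in replicate 1 and 1087-fold in replicate 2. Of the 909 windows of 50 bases in the Cela3a transcript, 291 (32.0%) also occur in Cela3b, and of those of 100 bases 12.1%. The other pairs shared no window of 50 bases. The 53.3 and 70.6 expected counts of Cela3a amounted to 0.146% and 0.0958% of the counts of Cela3b. Whether some of them came from Cela3b reads was not tested. The deposited posterior SD of the Cela3a count was 0.49 and 1.64, and it covers the assignment of reads under the authors' model only.

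The balance of the subfamilies differed between libraries. The summed TPM of the elastase genes was 0.880 times that of the chymotrypsinogen genes in replicate 1 and 1.62 times in replicate 2 (1.25 ± 0.523, SD, n = 2). A ratio within a library does not depend on how the libraries are scaled against each other. Over protein coding transcripts alone, an alternative chosen after seeing the data, it was 0.802 and 1.21. On expected counts, which favour long transcripts, it was 1.02 and 1.66. Elastase transcripts were thus the more abundant subfamily in replicate 2 on each of these measures, and in replicate 1 on counts alone.

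Set among 18 genes of 4 pancreatic protease classes, elastases went from 25.0% of their summed TPM in replicate 1 to 42.4% in replicate 2. The chymotrypsinogens held 28.5% and 26.2%. Trypsinogens, the precursors of the protease that activates the rest, held 28.5% and 22.5%, and the carboxypeptidases Cpa1 and Cpb1, which trim residues from the C-terminus, 18.0% and 8.90%. These carboxypeptidases took the smallest share in both libraries, while elastases were behind chymotrypsinogens and trypsinogens in replicate 1 and ahead of both in replicate 2.

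**Figure D2:**
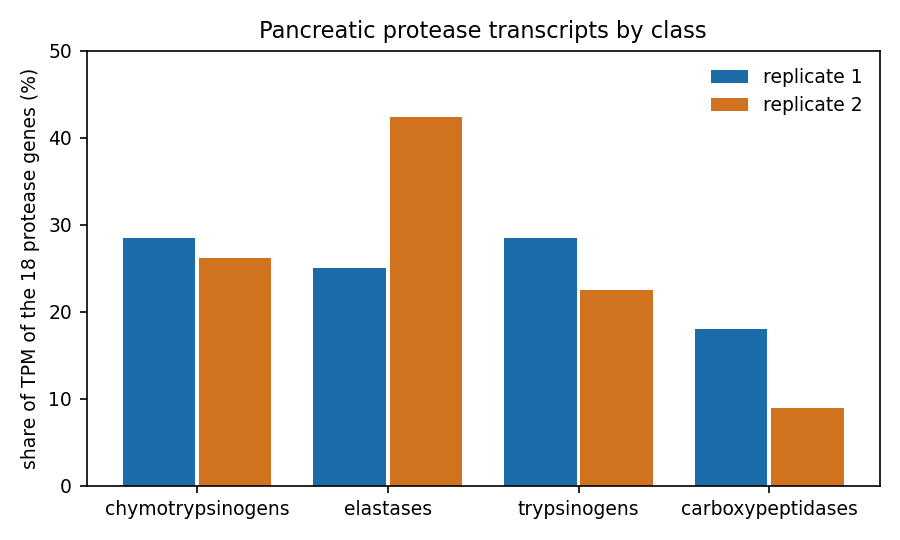
Share of the summed TPM of 18 protease genes (%, axis from 0) held by each of 4 classes, with 1 bar per library and no error bars. Elastases stand at 25.0% in replicate 1 and 42.4% in replicate 2, chymotrypsinogens at 28.5% and 26.2%.

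The libraries were then compared by the log2 ratio of replicate 2 over replicate 1, from expected counts scaled by TMM, which assumes that most genes do not change. The ratio of every gene was set against counting error alone in an exact binomial test (two-sided), Benjamini-Hochberg adjusted over 12452 genes. It compares a pair of libraries, not conditions, and holds no spread between replicates. Calls needed an adjusted p under 0.05 together with a ratio of 1 or beyond on the log2 scale. Of all tested genes 8.31% were called higher in replicate 2 and 4% lower. Of the 7 members, 3 elastase genes were called higher, none was called lower, and all 7 ratios were above the median of all tested genes. The median log2 ratio was 0.98 over the members, 1.32 over the 4 elastases and 0.76 over the 3 chymotrypsinogens, against -0.01 over all tested genes.

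With 36456 counts in replicate 1 and 73672 in replicate 2, Cela3b had a log2 ratio of 1.50 and a 95% exact interval of 1.48 to 1.52. For Cela2a, 115570 and 228586 counts gave 1.47 (1.46 to 1.48), and for Cela1, 100112 and 161902 gave 1.18 (1.16 to 1.19). These 3 pass the size threshold, with intervals that lie wholly above it. Ctrc, with 1705 and 2410 counts, came to 0.98 (0.89 to 1.07, adjusted p = 2.76e-102 in the exact binomial test), just inside the threshold and not called. Cela3a had the fewest counts and the widest interval, 0.90 (0.37 to 1.45, adjusted p = 0.0025 in the exact binomial test). Ctrb1 was at 0.76 (0.75 to 0.77) on 173768 and 210489 counts. Ctrl was at 0.40 (0.38 to 0.41), with 71330 counts in replicate 1 and 67171 in replicate 2, so its raw count was the lower one in replicate 2. Intervals cover counting error only, since PCR copies are no independent molecules.

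The size of the ratios, and for Ctrl the sign, depends on the scaling. When library totals replaced TMM, the median of all tested genes moved from -0.01 to -0.55, 2.75% of the genes were called higher and 20.9% lower, and none of the members was called. Ctrl then turned to -0.14, still above the median, while the other 6 members were above 0: Cela3b stood at 0.96, Cela2a at 0.93, Cela1 at 0.64, Ctrc at 0.45, Cela3a at 0.37 and Ctrb1 at 0.22. After removal of a smooth trend on GC content and transcript length, 4.18% of genes were called higher and 3.84% lower. Cela2a was then the only member called, at 1.10, with Cela1 at 0.91 and Cela3b at 0.88. With whole genes counted, in each of these scalings the values of Cela1, Cela2a and Cela3b exceeded those of the 3 chymotrypsinogens. Among the 52 most counted genes (mean 10000 or more), which include 5 members, 11.5% were called higher and 26.9% lower under TMM.

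**Figure D3:**
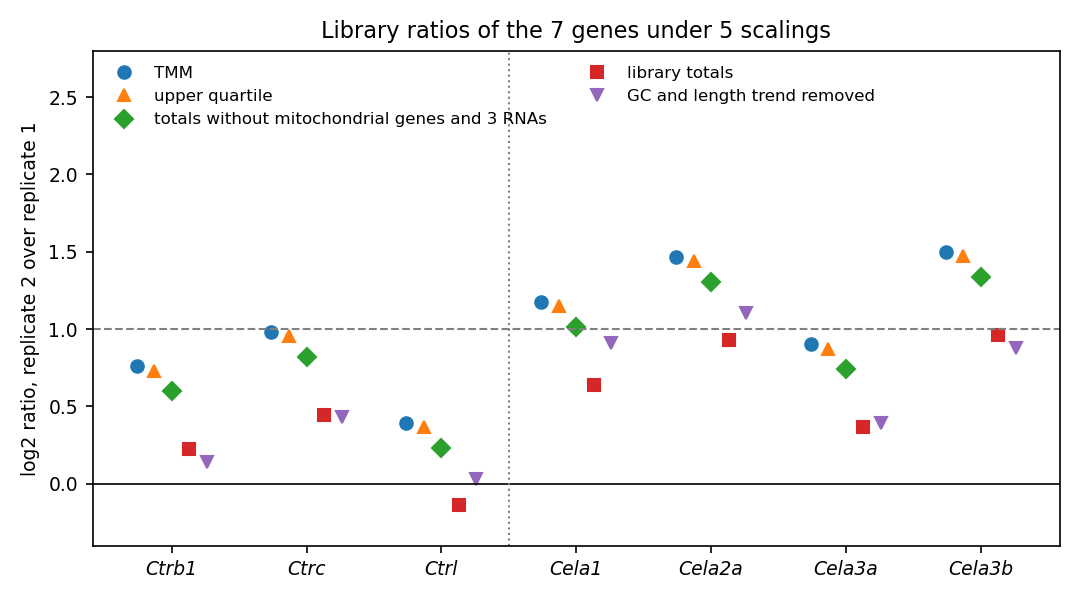
Log2 ratio of replicate 2 over replicate 1 for each gene under 5 scalings, with a dashed line at the call threshold of 1 and chymotrypsinogens left of the dotted line. Cela1, Cela2a and Cela3b lie above the chymotrypsinogens under each scaling, and Ctrl falls below 0 with library totals only.

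Isoforms separated the members further. Of the 7 genes, 4 have 1 transcript each in the files (Ctrb1, Ctrl, Cela1 and Cela3a), so gene and transcript values coincide. Cela3b has 2, and its coding transcript Cela3b-201 held 98.9% of the gene's TPM in replicate 1 and 99.5% in replicate 2. Cela2a with 3 transcripts and Ctrc with 5 had no transcript that reached 90% in both libraries.

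Part of the Cela2a value came from a short transcript that starts inside an intron. The coding transcript Cela2a-201, of 1070 bases, had 13484 TPM in replicate 1 and 25942 in replicate 2, which is 80.7% and 55.5% of the gene. Cela2a-202, a retained intron transcript of 468 bases, had 3174 and 20761 TPM, or 19.0% and 44.4%. In counts its share was 7.33% and 21.5%, since TPM weights short transcripts up. Its log2 ratio was 3.02 (2.99 to 3.06), against 1.23 (1.22 to 1.24) for Cela2a-201, so the coding transcript alone also passed the size threshold under TMM. The remaining transcript, Cela2a-203, had 43.7 and 30.7 TPM.

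Cela2a-202 is told apart from Cela2a-201 by its first 75 bases alone, which lie in an intron (chr4:141819128-141819202, minus strand, GRCm38). Its other 393 bases equal the last 393 of Cela2a-201. The start of this transcript is shown, from GENCODE M21, because it holds the bases not shared with Cela2a-201. The intronic bases are in capitals and the shared exon in lower case.
Cela2a-202, bases 1 to 95: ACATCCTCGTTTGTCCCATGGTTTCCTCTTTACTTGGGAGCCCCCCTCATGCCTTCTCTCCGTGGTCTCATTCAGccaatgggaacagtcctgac
Reads in the shared 3′ exons can be given to either transcript, so the split is the authors' estimate, and coverage along the transcripts was not analysed here. The deposited posterior SD of the Cela2a-202 count was 278 on 8471 counts in replicate 1 and 271 on 49260 in replicate 2. It covers the assignment of reads under the authors' model and not the spread between libraries.

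**Figure D4:**
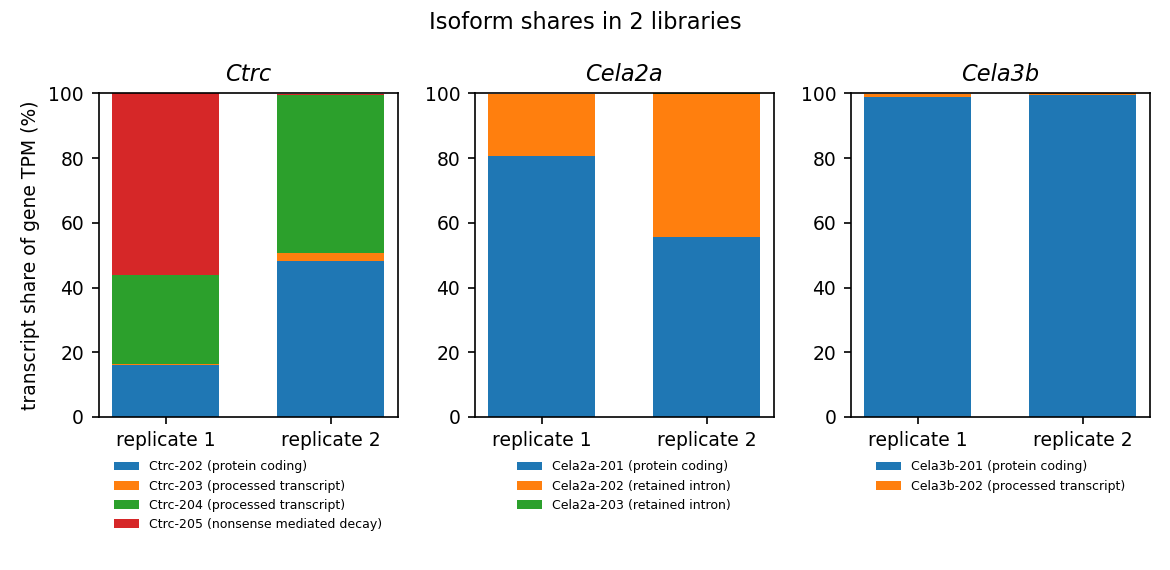
Share of each gene's TPM (%) held by its transcripts, stacked, for Ctrc, Cela2a and Cela3b in each library. Ctrc-205 fills 56.1% of Ctrc in replicate 1 and 0.43% in replicate 2, Cela2a-202 19.0% and 44.4% of Cela2a, and Cela3b-201 nearly all of Cela3b in both.

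The Ctrc gene as annotated contains the whole of Cela2a, because 1 of its transcripts runs on into the last exons of Cela2a on the same strand. This transcript, Ctrc-205, is annotated as a target of nonsense-mediated decay and has 591 bases in 7 exons, of which the first 286 bases are Ctrc and the last 305 are shared with Cela2a. The join is shown from GENCODE M21, with Ctrc in lower case and the Cela2a exon in capitals.
Ctrc-205, bases 247 to 316: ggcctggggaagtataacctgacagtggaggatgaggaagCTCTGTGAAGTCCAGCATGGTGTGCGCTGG
Ctrc-205 has no base of its own outside the exons of other Ctrc and Cela2a transcripts, and only reads across this join are particular to it.

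**Figure D5:**
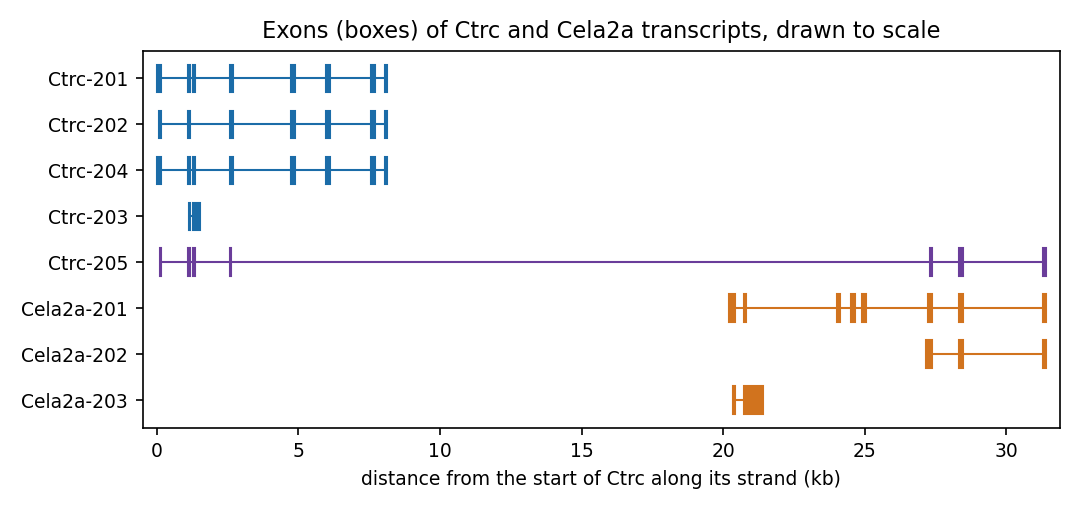
Exons (boxes, to scale) of 5 Ctrc and 3 Cela2a transcripts against distance in kb from the start of Ctrc along its strand. Ctrc-205 has 4 exons at the Ctrc end and 3 within the last exons of Cela2a, where Cela2a-202 also lies.

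Ctrc-205 had 195 TPM in replicate 1 and 1.96 in replicate 2, or 56.1% and 0.43% of the gene. Its expected counts were 731 and 6.48, with a posterior SD of 75.5 and 4.37. The coding transcript Ctrc-202 went the other way, from 55.8 to 219 TPM, with a log2 ratio of 2.26 (2.08 to 2.46). Its posterior SD was 46.7 on 303 counts in replicate 1 and 55.4 on 1043 in replicate 2. The interval treats these estimated counts as exact and leaves that SD out. Ctrc-204, annotated as a processed transcript, had 96.6 and 223 TPM, Ctrc-203 0.78 and 10.3, and the coding transcript Ctrc-201 is listed at 0 in both libraries. The gene level of Ctrc therefore joined transcript estimates that moved in opposite directions. Whether the transcripts themselves did so, or the assignment of shared reads differed between libraries, was not tested.

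Without Ctrc-205, an alternative chosen after seeing the data, Ctrc had 153 and 453 TPM and a log2 ratio of 1.79. With coding transcripts alone, also chosen after seeing the data and leaving out Ctrc-204 as well, the ratio was 2.26. In both cases Ctrc passed the call threshold and stood above the ratios of all 4 elastase genes, and 4 of the 7 members were then called higher. These calls take estimated transcript counts as exact. The posterior SD of the gene count was the same for Ctrc and Cela2a, 66.8 counts in replicate 1 and 3.04 in replicate 2. It was 3.92% of the Ctrc count in replicate 1 and 0.126% in replicate 2. Over 3686 genes with several transcripts and 100 or more counts on average, the median of the largest difference in isoform share between libraries was 19.8 percentage points. Ctrc differed by 55.6 points, and 5.53% of these genes differed by as much, while the 25.4 points of Cela2a were reached by 39.0% of them. Cela3b differed by 0.645 points.

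Other genes overlap this locus. The antisense gene Ctrcos, on the opposite strand at the start of Ctrc, had 29.3 and 17.3 TPM, and Casp9, whose 3′ end overlaps that of Cela2a from the other strand, 1.79 and 1.98 TPM. The sources used here do not say whether reads were counted by strand, so reads of these antisense partners may not be separable. Casp9 was low beside Cela2a. Ctrcos was lower than the coding transcript Ctrc-202, at 55.8 and 219 TPM, though less far below it in replicate 1.

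In gene structure, Ctrb1 and Ctrl have 7 coding exons and the 4 elastase genes 8. For Ctrc the number depends on the transcript: Ctrc-202 has 7 exons and lacks one that Ctrc-201, Ctrc-204 and Ctrc-205 carry, Ctrc-204 has 8 and Ctrc-201 has 9. In Ctrc-201, exon 2 ends at base 141845190 and exon 3 begins at base 141845187 of chromosome 4, with almost no intron between them. Coding status is that of the annotation, and the reading frame of Ctrc in this strain was not examined. Coding lengths ran from 705 bases (Ctrc-202) to 849 (Cela3a), and GC content of the coding sequence from 56.5% (Cela1) to 59.5% (Cela2a). The closest pair apart from Cela3a and Cela3b was Ctrb1 and Ctrl, at 62.5% identity, and these genes, both on chromosome 8, differed 2.44- and 3.14-fold in level. All 7 genes lie on the minus strand.

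Other genes of the pathway came from lists chosen with earlier results of these data known. Of the 9 trypsinogen genes, all reached 1 TPM in both libraries and 3 were called higher, Prss1 at 1.46, Prss3 at 1.08 and Try10 at 1.04, with none lower. Of all tested genes 8.31% were called higher and 4% lower. The most abundant, Prss2, Try4 and 2210010C04Rik, had log2 ratios of 0.76, 0.82 and -0.56. With library totals none of the 3 was called higher and 2210010C04Rik was called lower. Trypsinogen paralogs share sequence, so their split is uncertain. Of the 2 carboxypeptidase genes listed neither was called, with Cpa1 at -0.29 and Cpb1 at -0.29. Spink1, the trypsin inhibitor packed with the zymogens, was called higher, at 1033 and 1739 TPM with a log2 ratio of 1.07, a call that library totals ended, and the serpin gene Serpini2, at -0.13, was not called. The enteropeptidase gene Tmprss15, which acts in the intestine, is listed at 0 in both libraries.

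Among 14 tested genes of other acinar products, none was called higher and 2 were called lower, Rnase1 (-1.02) and Pla2g1b (-1.17), with Amy2a5 at 0.07, Pnlip at 0.05 and Clps at 0.34. The shares over all tested genes were 8.31% higher and 4% lower. Over genes averaging 1000 or more counts they were 10.2% and 8.94%, so these few calls do not set the list apart. The list's median was 0.11 and that of the elastases 1.32. None of 12 acinar transcription factors was called, and with library totals 3 were called lower (Rbpj, Tcf12 and Gata6), a share near the 20.9% of all tested genes. Rbpjl had 190 and 294 TPM, Xbp1 109.5 and 99.1 TPM, Bhlha15 25.8 and 29.1 TPM, Ptf1a 7.91 and 9.01 TPM, and Gata4 7.40 and 5.50 TPM. As a check of the labelled tissue, 14 of 15 acinar products reached 1 TPM in both libraries.

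Markers of several other cells were scarce. The neutrophil elastase gene Elane and Ctsg are listed at 0 in both libraries and Prtn3 at 0 and 0.58 TPM. The 4 mast cell protease genes, which include the carboxypeptidase gene Cpa3, summed to 4.87 and 2.67 TPM. The 5 intestinal markers summed to 2.38 and 3.28 TPM. Each of these sums was below the level of Cela3a, the lowest member, in the same library. The 4 liver markers summed to 114 and 96.0 TPM, nearly all of it from Ttr, which islet cells also express, with Alb at 0.61 and 0.56 TPM. Of the 7 tested islet genes 1 was called higher, Ppy at 2.07, and 1 lower, Gcg at -1.19, and these calls held with library totals. Of the 4 tested leukocyte genes 1 was called lower, Cd79a at -1.38. Over all tested genes the shares were 8.31% higher and 4% lower. No gene of the duct, endothelium, fibroblast or adipocyte lists was called under TMM. With library totals, 2 of 5 tested duct genes, 2 of 4 endothelium, 1 of 5 fibroblast and 2 of 4 adipocyte genes were called lower. The same scaling called 3 of the 4 leukocyte genes lower, and 20.9% of all tested genes.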

How the data were processed

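Values rest on build mm10 and the GENCODE M4 annotation, per the deposited README files; aligner and quantifier: not given in the sources used here. The deposited expected count is an estimate per gene or transcript and was rounded for tests. The deposited TPM corrects for effective length, and the deposited FPKM served only as a record. The deposited posterior mean TPM, a signal, and posterior SD of the count were used as deposited. The deposited percent of each isoform was recomputed from TPM. Symbols, positions and transcript sequences came from GENCODE M21 (42462 of 43346 identifiers matched), promoters from RefSeq on GRCm38.p6.

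Counts were scaled with TMM (edgeR 4.0.16, R 4.3.3). With 1 library a side edgeR has no residual degrees of freedom, so an exact binomial test (two-sided, scipy 1.17.1, Benjamini-Hochberg adjusted) was run on genes averaging 10 counts or more. Calls needed adjusted p under 0.05 and at least 1 between libraries on the log2 scale, with 0.5 added to counts. Intervals are exact Clopper-Pearson at 95%. The p-values set the difference between these libraries against counting error alone and hold no spread between replicates. The test was tested on simulated data.

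The rule for the members uses gene symbols alone, but these and the gene lists were chosen with earlier results of these data known. A result on 1 further gene is not reported here. The rule names the members, the 3 most abundant and any called gene of each list, overlapping or adjacent genes, and the 3 nearest in level; the most abundant genes of cell type lists are mostly given as sums or counts only. Others were named after their values were seen. Alternatives covered DESeq2 1.42.0 size factors, upper quartile factors, library totals, filters, assumed dispersions, a GC and length trend (mgcv 1.9.3), posterior means, and 2 choices of transcripts added after seeing the data.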

Additional observations from a re-analysis of the deposited data

How the results depend on the processing

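Of the 7 genes, 3 were called higher in replicate 2, and this count fell to 0 with library totals, to 0 with an edgeR exact test at an assumed dispersion of 0.1 and to 1 once the GC and length trend was removed. That dispersion stands for a spread between libraries that could not be estimated here, and at 0.1 it called 31 genes higher and 14 lower. Library totals also turned the log2 ratio of Ctrl to -0.14. The mean share of TPM moved from 10.3% to 18.7% when Gm42418, Gm26917, Lars2 and the mitochondrial genes with their nuclear copies were left out of the total. Of 88 values under alternatives, 76 kept their direction and their side of the threshold or stayed within the spread. Part of this count was fixed in advance, since with 2 libraries the share or ratio of either one always lies within the SD of their mean. A rise from 3 to 4 called members counted as kept. So did a change in size, as for Ctrb1 from 0.76 to 0.14 once the GC and length trend was removed. Replicate 1 alone gave a share of 7.34% and replicate 2 alone 13.3%. Library ratios have no check beyond 2 technical libraries of 1 mouse, and the counts of Cela3a limit its ratio to 0.37 to 1.45. No paired analysis was possible because both libraries belong to 1 group.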

Other observations

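By Euclidean distance of log2(TPM + 1) over the 2 libraries, the protein coding genes nearest in level to most members were other acinar products. Ctrb1 lay nearest to the amylase genes Amy2a2 (28226 and 26302 TPM), Amy2a4 and Amy2a3, at distances of 0.53, 0.55 and 0.61. Ctrl lay nearest to the zymogen granule gene Zg16 (10845 and 13435 TPM, distance 0.16), and Cela3b to the granule gene Sycn (8532 and 9801 TPM, 0.74). For Cela2a the nearest gene outside the family was the colipase gene Clps (24016 and 24610 TPM), at 1.06. The member Ctrb1, with 27460 and 38071 TPM, lies nearer to Cela2a than Clps does. Cela1 lay nearest to the insulin gene Ins2 (13969 and 17977 TPM, 0.39), a product of another cell type. Ctrc lay nearest to the ribosomal protein gene Rpl28 (390 and 419 TPM, 0.20), and Cela3a to Slc35f5 (7.70 and 11.9 TPM, 0.035). With 2 libraries this measure describes a level and a single difference, and no pattern across conditions.

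The protein coding genes that flank the members were low. Pskh1 ends 224 bases from Ctrl and had 2.55 and 2.01 TPM, while Psmb10, on its other side, had 34.2 and 47.8 TPM. Next to Ctrb1, Zfp1 had 3.02 and 1.93 TPM and Bcar1 2.70 and 4.05 TPM. Bin2 and Galnt6, the neighbours of Cela1, were at 0.72 and 0.49 and at 4.53 and 3.50 TPM. Around the Cela3 pair, Cdc42 had 47.2 and 30.7 TPM and 1700013G24Rik is listed at 0. On either side of Ctrc and Cela2a, Dnajc16 had 2.04 and 1.03 TPM and Efhd2 4.44 and 5.36 TPM. Each of the flanking genes was below the adjoining member in both libraries, except Cdc42, which was above Cela3a.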
